A study of Mus musculus with 63 samples.

Results

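The 7 secreted products of Paneth cells followed here through small-intestinal tumours of the mouse were *Lyz1*, *Mmp7*, *Ang4*, *Defa24*, *Defa17*, *Mptx2* and *Itln1*. They were chosen by gene symbol, each symbol occurs once among the 24766 genes of the table, and all 7 passed the filter on low values in every comparison. The tumours came from 2 *Apc*het mice, 1 female and 1 male, in which *Villin-cre*ER deletes 1 floxed copy of *Apc* in the intestinal epithelium and a *Confetti* reporter colours scattered crypts. Both mice were over 8 weeks of age when they received 4 mg of tamoxifen, and both received 200 mg/kg of the mutagen *N*-ethyl-*N*-nitrosourea (ENU) 10 days later, so that no untreated or normal tissue stands beside the tumours. From 20 divided tumours, 10 per mouse, the major and the minor clone were dissected and sequenced apart (the classes are those of the study's source data, since the sample labels give clone letters only), and 23 tumours, 10 of the female and 13 of the male mouse, were sequenced undivided, which gave 63 bulk mRNA libraries. Each library carries a segment label of the small intestine, SI10, SI20 or SI30, whose distances the labels do not define. SI30 was sampled in 2 divided tumours of the female mouse alone, and the clones of its tumour 22 carried different labels, SI20 for the major and SI10 for the minor one. Mouse and sex cannot be told apart in this design. The series' design text counts 20 monoclonal tumours, and the labels do not state which 3 of the 23 undivided libraries lie outside that number. Undivided tumours are numbered 1 to 10 in each mouse, with 15, 17 and 18 besides in the male mouse, so the numbering points to these 3. All 23 were kept, and the numbers 1 to 10 were not analysed alone.

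Paneth cells sit at the base of small-intestinal crypts between the *Lgr5*-expressing stem cells, store antimicrobial proteins in large granules and release them into the crypt lumen. They also supply stem cells with Wnt, Notch and EGF ligands. Wnt signalling through β-catenin, which loss of *Apc* switches on, is itself required for Paneth cell maturation, and Paneth-like cells are known to occur in *Apc*-deficient adenomas of the mouse.

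The members fall into several kinds of molecule. *Lyz1* (chromosome 10, 117123698 to 117128775, minus strand, GRCm39) encodes the lysozyme of Paneth granules, an enzyme that cleaves bacterial peptidoglycan. *Defa24* (chromosome 8, 22224506 to 22225490, plus strand) and *Defa17* (chromosome 8, 22145772 to 22146753, plus strand) encode α-defensins, short cationic peptides that damage bacterial membranes, and *Mmp7* (chromosome 9, 7692091 to 7699587, plus strand) encodes matrilysin, the protease that cuts mouse pro-α-defensins into their active form. *Ang4* (chromosome 14, 51990721 to 52011053, minus strand) is a secreted ribonuclease of the angiogenin family. *Mptx2* (chromosome 1, 173101949 to 173105344, minus strand) encodes a mucosal pentraxin and *Itln1* (chromosome 1, 171345690 to 171368943, minus strand) an intelectin, a lectin that binds microbial glycans.

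The α-defensins are close copies of each other, and this bears on what a count for 1 of them means. The coding sequences of *Defa24* and *Defa17* without the stop codon, taken from 1 transcript of each gene in the GENCODE annotation of GRCm39, are both 279 bases long and differ at 12 positions, an identity of 95.7%. They are printed 5′ to 3′ in lower case, with the bases that differ in capitals.
Defa24: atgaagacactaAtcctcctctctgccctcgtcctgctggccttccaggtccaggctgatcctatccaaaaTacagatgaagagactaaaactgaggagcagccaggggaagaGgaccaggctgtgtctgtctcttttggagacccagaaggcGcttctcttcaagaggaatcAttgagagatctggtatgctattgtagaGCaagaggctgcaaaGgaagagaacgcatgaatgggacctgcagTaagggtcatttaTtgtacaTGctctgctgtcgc
Defa17: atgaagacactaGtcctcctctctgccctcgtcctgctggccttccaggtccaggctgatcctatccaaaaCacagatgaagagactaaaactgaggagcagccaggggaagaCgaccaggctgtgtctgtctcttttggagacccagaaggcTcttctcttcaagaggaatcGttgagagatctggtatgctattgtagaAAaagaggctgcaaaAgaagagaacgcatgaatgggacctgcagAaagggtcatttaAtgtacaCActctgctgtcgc

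The annotated transcripts of *Defa17* hold 471 different stretches of 50 bases, the length of a read. Of these, 415, or 88.1%, also occur in transcripts of other genes, 20 in all, among them *Defa3*. For *Defa24* the share was 29.1%, with 10 other genes, among them *Defa30*. *Mptx2* shared 17.99% of its stretches with *Mptx1*, and *Lyz1* shared 15.4% with 2 other genes, among them *Lyz2*. *Ang4* shared 5.78%, whereas *Itln1* shared 0.770% and *Mmp7* none. The level of *Defa17* therefore rests on how reads were divided between near-identical genes, and all its values below are uncertain on that ground.

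*Lyz1* and *Lyz2* matter for another reason, since *Lyz2*, the lysozyme of macrophages, lies next to *Lyz1* on chromosome 10 (117111557 to 117118346, minus strand). Their coding sequences of 444 bases differ at 22 positions (95.05% identity), of which 14 fall in the first 150 bases shown here, with differences in capitals.
Lyz1: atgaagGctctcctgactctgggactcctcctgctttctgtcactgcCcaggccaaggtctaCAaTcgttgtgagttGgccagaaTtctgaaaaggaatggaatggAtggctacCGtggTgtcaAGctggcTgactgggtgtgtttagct
Lyz2: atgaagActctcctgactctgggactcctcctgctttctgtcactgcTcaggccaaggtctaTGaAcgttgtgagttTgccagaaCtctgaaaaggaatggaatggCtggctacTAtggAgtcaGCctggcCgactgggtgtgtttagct

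All 7 products were abundant in every kind of sample. On the scale of normalised counts per kilobase of 1 annotated transcript of each gene, *Lyz1* had the highest median over the 63 libraries (38292), followed by *Defa24* (29874). *Mmp7* (7462), *Itln1* (7385) and *Defa17* (6632) lay close together, and *Mptx2* (3661) and *Ang4* (1693) were lowest. The divisor was the whole transcript length, 422 bases for *Defa24* and 1269 for *Lyz1*, with no correction for the length of sequenced fragments. The order of short against long transcripts is uncertain on that ground. Neighbours in this order changed places often: *Lyz1* lay above *Defa24* in 41 of 63 libraries and *Mmp7* above *Itln1* in 29 of 63, while *Defa24* lay above *Mmp7* in 58 of 63. *Lyz1* was the highest of the 7 in 40 libraries, *Defa24* in 22 and *Itln1* in 1. *Lyz1* alone took a median of 0.157% of all normalised counts in a library and at most 0.738%. Library sums lay between 26140200 and 45909900 normalised counts.

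*Lyz1*, the lysozyme of the granules, had normalised counts of 31166 at the lowest, 51543 at the median and 119987 at the highest in the 20 major clones. In the 20 minor clones the 3 values were 11253, 52508 and 229090, and in the 23 undivided tumours 7278, 35415 and 110905. The highest value came from the female mouse (tumour 26, minor clone) and the lowest to undivided tumour 15 of the male mouse. The groups overlapped, although 10 of the 23 undivided tumours lay below the lowest major clone.

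*Defa24* ranged from 2409 (lowest) over 14712 (median) to 55208 (highest) in major clones. It ranged from 1729 over 10645 to 64961 in minor clones and from 1154 over 10773 to 34408 in undivided tumours. The groups overlapped almost throughout, with 2 of 23 undivided tumours below the lowest major clone. *Defa17* had a lowest, median and highest value of 575, 3638 and 24628 in major clones. The values were 390, 2376 and 16160 in minor clones, and 55.0, 2743 and 13650 in undivided tumours, where 2 of 23 lay below every major clone. *Mmp7*, the protease that processes defensins, had the smallest SD of the 7 on the log2 scale in minor clones (0.69) and undivided tumours (0.85), whereas in major clones *Lyz1* (0.61) was more even than *Mmp7* (0.80). It ranged from 2472 over 7190 to 21898 in major clones, from 2209 over 8317 to 18072 in minor clones and from 2905 over 7969 to 34291 in undivided tumours, with no undivided tumour below the lowest divided one.

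*Ang4*, the ribonuclease, spread most widely among undivided tumours, from 18.7 over 1161 to 8278, against 239, 1454 and 7134 in major and 88.6, 757 and 11439 in minor clones. *Mptx2* ranged from 995 over 3665 to 17458 in major clones, from 383 over 4950 to 15874 in minor clones and from 43.7 over 2200 to 36947 in undivided tumours. Its highest and lowest libraries were both undivided tumours of segment SI10. *Itln1* ranged from 3598 over 10132 to 35232 in major clones, from 2570 over 8700 to 25721 in minor clones and from 1886 over 6849 to 33172 in undivided tumours, and its groups overlapped along most of their length.

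**Figure D1:**
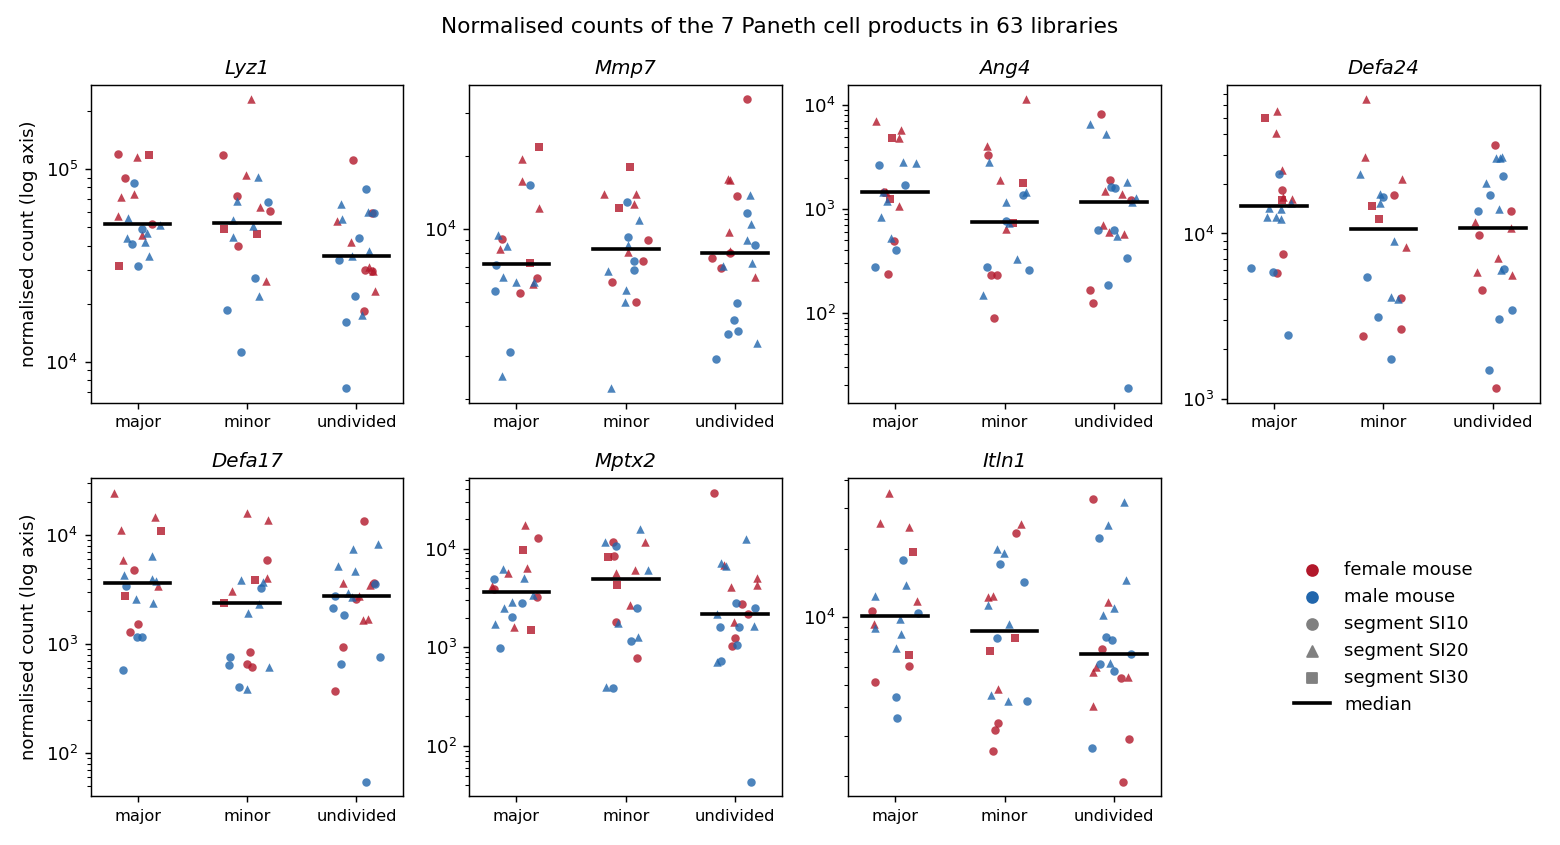
Normalised counts of each member on a log axis in 20 major clones, 20 minor clones and 23 undivided tumours, with a point for each library coloured by mouse and shaped by segment, and a line at the median. The 3 groups overlap for every member, and *Ang4*, *Defa17* and *Mptx2* have the longest lower tails among undivided tumours, down to 18.7, 55.0 and 43.7.

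Single tumours stood apart for several members at once. Undivided tumour 4 of the male mouse was among the 3 lowest of 63 libraries for 5 of the 7 members, and undivided tumour 1 of the female mouse for 3. Undivided tumour 5 of the female mouse and, in its tumour 26, the minor clone were each among the 3 highest for 4 members, as was the major clone of its tumour 28. With mouse means removed, the SD of log2(value + 1) over the 23 undivided tumours was 1.99 for *Ang4*, 1.80 for *Mptx2*, 1.70 for *Defa17*, 1.36 for *Defa24*, 1.05 for *Itln1*, 0.90 for *Lyz1* and 0.75 for *Mmp7*, against a median of 0.48 over all genes with a mean of at least 10. In bulk tissue, fewer Paneth cells, less RNA per Paneth cell and a different amount of RNA from other cells cannot be told apart.

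The first comparison asked whether Paneth cell products differ between clones that share a tumour. In the mean of the 20 tumours the 2 α-defensins and *Ang4* were higher in the major clone, but no member passed the threshold used here, a Benjamini-Hochberg adjusted p under 0.05 over all genes in limma with the tumour as a block, whereas 1.14% of the 16428 genes tested did. An unadjusted p under 0.05 was found for 3 members, *Defa17*, *Defa24* and *Ang4*, and for 22.4% of all genes. The exact Wilcoxon signed-rank test also called 0 members after adjustment over all genes (48 genes in all) and gave an unadjusted p under 0.05 for the same 3.

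Among the 7, *Defa17*, uncertain because of shared reads, had the largest mean difference, 0.91 ± 0.29 (SE, n = 20 tumours) on the log2(value + 1) scale. It differed 1.88-fold, with an adjusted p of 0.0766 in limma. It was higher in the major clone of 14 of 20 tumours, 7 of 10 in each mouse, and the single differences ran from -1.94 in tumour 19 of the female mouse to 3.06 in tumour 19 of the male mouse. *Ang4* was higher in the major clone of 14 tumours as well, by 0.80 ± 0.32 in the mean (adjusted p = 0.148, limma), and ran from -2.76 to 2.71 in these same tumours. *Defa24*, again in 14 of 20, differed by 0.66 ± 0.25 (adjusted p = 0.130, limma). Signed-rank tests of these members gave adjusted p values of 0.11 for *Defa17* and 0.211 for both *Ang4* and *Defa24*.

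*Lyz1* did not follow them in size. Its mean difference was 0.19 ± 0.19 (adjusted p = 0.567, limma), with 13 of 20 tumours higher in the major clone and a range from -1.63 to 1.85. *Mmp7* was higher in the major clone of 10 tumours and in the minor clone of 10, with a mean of -0.07 ± 0.16 (adjusted p = 0.835, limma). *Itln1* differed by 0.30 ± 0.22 (adjusted p = 0.425, limma), 0.73 in the female and -0.12 in the male mouse. *Mptx2* had the widest differences, from -2.46 in tumour 30 of the female to 3.96 in tumour 28 of the male mouse, and exceeded 2-fold in 14 of 20 tumours, 7 in each direction, with a mean of 0.13 ± 0.34 (adjusted p = 0.858, limma).

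**Figure D2:**
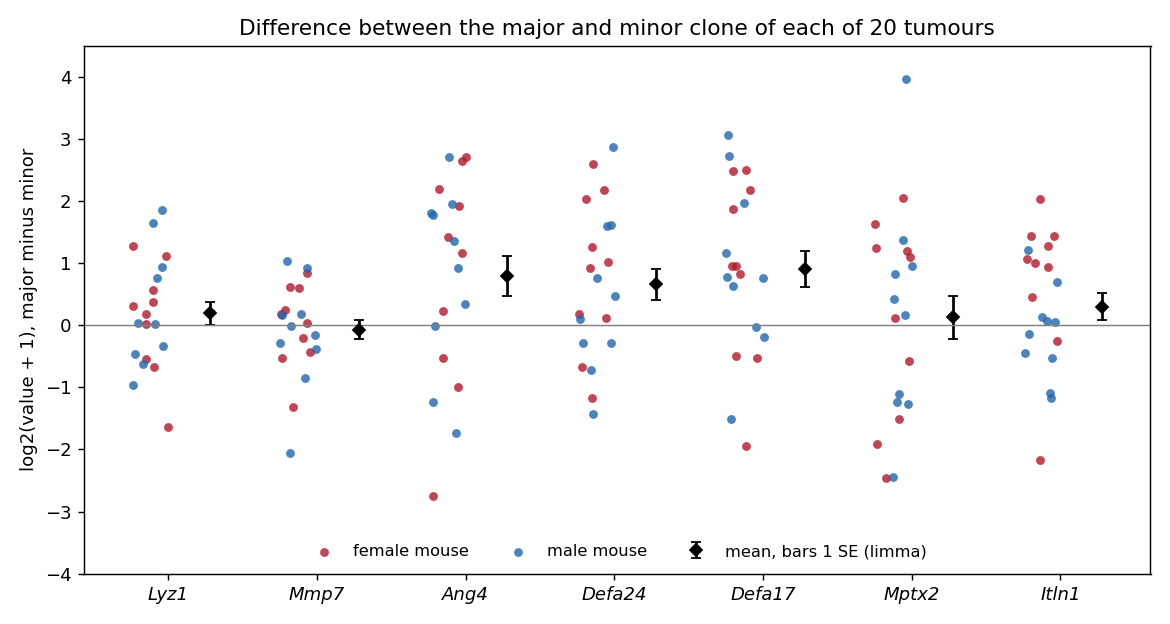
Difference in log2(value + 1) between the major and minor clone of each of the 20 divided tumours, coloured by mouse, for each member, with the mean and 1 SE beside the points. Values above 0 are higher in the major clone, as in 14 of 20 tumours for *Ang4*, *Defa24* and *Defa17*, and no mean passed the threshold.

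Within a tumour the members tended to lie on 1 side. In 6 tumours all 7 were higher in the major clone and in a further 5 tumours 6 of 7 were, whereas in 2 tumours of the male mouse, 23 and 27, all 7 were higher in the minor clone. The call of *Defa17* and *Ang4* depended on 1 tumour: without tumour 19 of the female mouse both passed the threshold, at 1.06 and 0.98 on the log2 scale, and the number of all genes called rose from 188 to 859. Differences between the mice in these contrasts passed for 0 genes in limma (1257 had an unadjusted p under 0.05), and the unadjusted p was under 0.05 for 1 member, *Itln1* (-0.85 ± 0.41, male minus female, p = 0.0487 and adjusted p = 0.650 in limma). *Rn18s*, a ribosomal RNA gene, was lower in the major clone of 15 of 20 tumours, by 1.46 ± 1.55 (SD) in the mean on the log2 scale, and the part of ribosomal reads in the member differences was not tested.

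Other genes of the lineage moved in the same comparison. *Atoh1*, the transcription factor that commits crypt cells to the secretory fate, rose in major clones by 0.69 ± 0.13 (adjusted p = 0.0207, limma), the 1 of 13 Paneth cell regulators that passed. *Dll4*, a Notch ligand, rose by 0.58 ± 0.14 (adjusted p = 0.0444). It was the 1 of 7 genes that passed in a niche list, which holds ligands and also the surface proteins *Kit* and *Cd24a*. Of these 7 genes, 3 had positive differences, with a median of -0.01. Of 26 other Paneth cell products tested, most of them α-defensins that share reads with *Defa24* and *Defa17*, 24 had positive differences and 0 passed, with a median of 0.57 against 0.01 over all genes. Goblet cell genes were positive in 14 of 14, and 3 passed, *Spink4* (0.63 ± 0.12, adjusted p = 0.0238), *Creb3l1* and *Clca1*. Enteroendocrine genes were positive in 11 of 11, and 3 passed, among them *Chgb* (0.89 ± 0.17, adjusted p = 0.0207). Enterocyte genes were positive in 15 of 15, and *Sis*, the sucrase of the brush border, passed. Tuft cell genes were positive in 4 of 9, with a median of -0.01 and 0 called. Markers of macrophages and neutrophils were positive in 12 of 12 and those of fibroblasts and muscle in 10 of 11, with medians of 0.35 and 0.66 and 0 called. The mean log2 level of the macrophage and neutrophil list ranged from 6.90 to 9.10 in major and from 6.30 to 9.15 in minor clones, and that of the fibroblast and muscle list from 6.95 to 10.6 and from 6.6 to 10.8, with no marker of either list at a median of 0. The part of these other cells in the member differences was not tested.

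Undivided tumours were next set against each clone class, with mouse as a covariate, in comparisons that share the same undivided tumours. Segments were sampled unequally, with 12 SI10 and 11 SI20 among undivided tumours. Major clones held 7 SI10, 11 SI20 and 2 SI30, and minor clones 8, 10 and 2. Segment was not a covariate in the values below, so group and segment are mixed in them. With segment as a covariate, no member changed sign against major clones, and only *Mmp7* did against minor clones. Against major clones 6 of 7 members were lower in undivided tumours and 0 passed the threshold, where 0.0121% of 16510 genes did. *Lyz1* differed by -0.67 ± 0.22 (adjusted p = 0.281, limma), or 0.63-fold, and was the 1 member with an unadjusted p under 0.05, as were 12% of all genes. *Ang4* (-0.75 ± 0.51), *Defa17* (-0.70 ± 0.45), *Mptx2* (-0.64 ± 0.43), *Defa24* (-0.61 ± 0.37) and *Itln1* (-0.42 ± 0.30) had larger errors, and *Mmp7* lay at 0.06 ± 0.22. Of 23 undivided tumours, 17 were below the major clones' median for *Defa17*, 16 for *Defa24* and 15 for *Lyz1*, *Ang4*, *Mptx2* and *Itln1*, against 9 for *Mmp7*. In the male mouse alone *Defa24* and *Itln1* lay on the other side of 0, at 0.06 and 0.16, and the difference between the mice had an unadjusted p of 0.0364 in limma for *Itln1* (1.23 ± 0.57, adjusted p = 0.394). Without undivided tumour 15 of the male mouse, the lowest for *Lyz1* and *Mptx2*, their differences from major clones were -0.58 and -0.40. In the same comparison fibroblast and muscle markers were lower in 10 of 11 (median -0.70, 5 with an unadjusted p under 0.05, 0 called), beside a median of -0.64 for the 7 members, and 6 of 7 endothelial markers were lower (median -0.42, 0 called). The part of these other cells in the member differences was not tested.

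Against minor clones 0 members passed, beside 3.7% of 16491 genes, and 0 members had an unadjusted p under 0.05, beside 19.6%. *Lyz1* (-0.47 ± 0.27, adjusted p = 0.340) and *Mptx2* (-0.50 ± 0.50, adjusted p = 0.638) were furthest from 0 in limma. *Defa17* (0.21 ± 0.48), *Ang4* (0.05 ± 0.56), *Defa24* (0.03 ± 0.41), *Mmp7* (-0.01 ± 0.21) and *Itln1* (-0.14 ± 0.31) had errors as large as their differences or larger. In the same comparison the RNA of *Pla2g2a*, a phospholipase gene, fell by 0.66 on the log2 scale (SE 0.18, adjusted p = 0.0297, limma), the 1 of 26 other products that passed. Whether active enzyme was made was not measured. In the niche list the ligand *Wnt11* and the receptor *Kit* fell (-1.31 ± 0.32 and -0.90 ± 0.25). Enteroendocrine genes were higher in undivided tumours in 10 of 11 (median 0.83), and 5 passed, among them *Tph1* (1.13 ± 0.21). Enterocyte genes were higher in 14 of 15 (median 0.57), and 4 passed.

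**Figure D3:**
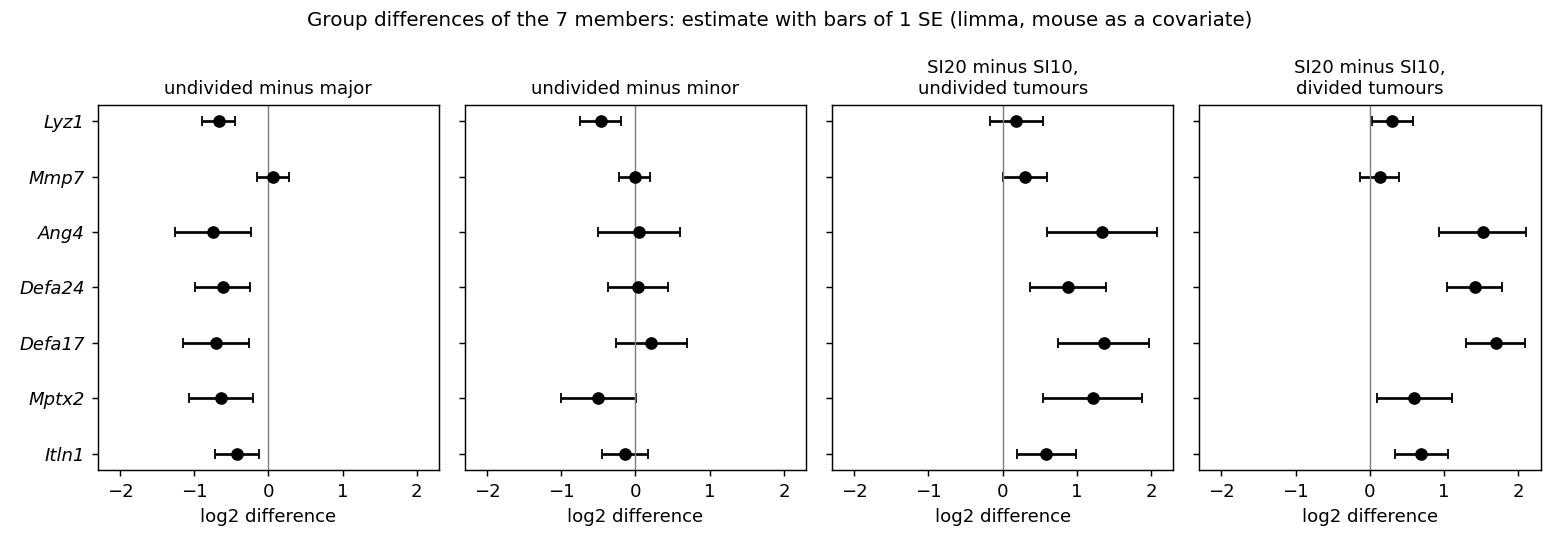
Log2 difference of each member with bars of 1 SE for undivided tumours against major clones, undivided tumours against minor clones, and segment SI20 against SI10 in undivided and in divided tumours, all from limma with mouse as a covariate. Against major clones 6 of 7 estimates lie below 0, and between segments all 7 lie above 0 in both sets of tumours, with no estimate past the adjusted threshold.

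Tumours were then compared by position along the small intestine. All 7 members were higher in segment SI20 than in SI10, in the 23 undivided tumours and in the 17 divided tumours whose clones carried the same label, yet none passed the threshold in either set, beside 0.17% of 16511 and 0.28% of 16436 genes. Unadjusted p values under 0.05 were found for 1 member in undivided tumours (*Defa17*; 7.62% of all genes) and for 3 in divided tumours (*Defa17*, *Defa24* and *Ang4*; 14.3% of all genes).

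In divided tumours, taking the geometric mean of value + 1 over the clones of a tumour, *Defa17* was 612 at the lowest, 1175 at the median and 3008 at the highest in the 7 SI10 tumours, and 1003, 4071 and 18507 in the 10 SI20 tumours. Of the SI20 tumours 7 lay above every SI10 tumour. The difference was 1.69 ± 0.40 (SE, adjusted p = 0.113 in limma), or 3.24-fold, for a gene uncertain because of shared reads. *Defa24* ranged from 2041 over 8483 to 11332 in SI10 and from 7019 over 14778 to 51537 in SI20, where 8 of 10 lay above every SI10 tumour, a difference of 1.41 ± 0.37 (adjusted p = 0.143, limma). *Ang4* ranged from 145 over 671 to 1432 in SI10 and from 281 over 1633 to 8118 in SI20, where 6 of 10 lay above every SI10 tumour, a difference of 1.52 ± 0.59 (adjusted p = 0.279, limma). The remaining members differed less, *Itln1* by 0.69 ± 0.36, *Mptx2* by 0.60 ± 0.51, *Lyz1* by 0.30 ± 0.28 and *Mmp7* by 0.13 ± 0.26.

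In undivided tumours *Defa17* was 55.0, 1992 and 13650 (lowest, median, highest) in the 12 SI10 tumours and 1675, 3484 and 8336 in the 11 SI20 tumours, a difference of 1.36 ± 0.61 (adjusted p = 0.624, limma). The SI20 tumours lay inside the range of the SI10 tumours, and 9 of 11 were above the SI10 median. For *Ang4* the difference was 1.34 ± 0.74, for *Mptx2* 1.21 ± 0.67 with 10 of 11 SI20 tumours above the SI10 median, for *Defa24* 0.88 ± 0.51, for *Itln1* 0.59 ± 0.40, for *Mmp7* 0.30 ± 0.30 and for *Lyz1* 0.19 ± 0.36. Within the mice these differences were unequal. In undivided tumours of the male mouse alone they were 2.24 for *Defa17*, 2.33 for *Ang4*, 1.52 for *Defa24*, 1.85 for *Mptx2* and 0.996 for *Itln1*, against 0.23, 0.074, 0.060, 0.38 and 0.065 in the female mouse, where *Lyz1* and *Mmp7* lay at -0.23 and -0.12. In divided tumours the larger values were those of the female mouse, 2.42 for *Defa17*, 2.82 for *Ang4* and 1.93 for *Defa24*, against 1.18, 0.59 and 1.04 in the male mouse. In limma the difference between the mice in undivided tumours was 2.01 ± 1.19 for *Defa17* (p = 0.105) and had an unadjusted p above 0.05 for every member, and in divided tumours it was not tested. Without undivided tumour 15 of the male mouse, *Lyz1* lay at -0.0084 and *Mptx2* at 0.79.

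Of the 26 other Paneth cell products, 26 were higher in SI20 in divided tumours, with a median of 1.37 against 0.01 over all genes, 19 with an unadjusted p under 0.05 and 0 past the threshold. In undivided tumours 24 of 26 were higher, with a median of 0.96 and 0 past the threshold. Fibroblast and muscle markers were higher there in 9 of 11 (median 0.76) and endothelial markers in 6 of 7 (median 0.75), with 0 called, against 7 of 11 (median 0.13) and 6 of 7 (median 0.074) in divided tumours, and their part in the member differences was not tested. *Atoh1* lay at 0.60 ± 0.15 in divided tumours (adjusted p = 0.140, limma) and did not pass. The macrophage and neutrophil markers had a median difference of -0.49 in divided tumours, with 2 of 12 positive, against -0.031 and 6 of 12 in undivided tumours. In divided tumours *Lyz2* lay at -0.78 ± 0.24 (adjusted p = 0.199, limma), opposite in sign to *Lyz1*. *Reg4*, a lectin of secretory cells, was the 1 listed gene that passed between segments (1.23 ± 0.25 in divided tumours, adjusted p = 0.0492, limma).

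*Lgr5* marks the crypt stem cells that Paneth cells neighbour. It ranged from 249 over 872 to 2818 normalised counts in major clones, from 443 over 850 to 2925 in minor clones and from 115 over 675 to 3081 in undivided tumours. Over undivided tumours, after removal of mouse means, all 7 members had a positive r with *Lgr5* and none of the 14 relations computed, 7 over undivided tumours and 7 over clone differences, had an adjusted p under 0.05. Segment was not removed, and the *Lgr5* median was 525 in SI10 and 1077 in SI20 undivided tumours, so these r values are mixed with segment. *Defa17*, uncertain because of shared reads, had the highest r, 0.38 (permutation p = 0.0837, adjusted p over the 14 relations 0.730), with a Spearman rho of 0.45 (permutation p = 0.0396, adjusted p = 0.555). It was 0.41 without the 2 tumours farthest from the *Lgr5* median, 0.10 in the female and 0.51 in the male mouse. For *Lyz1* r was 0.05 (permutation p = 0.828) and rho 0.06 (permutation p = 0.785), with 0.16 in the female and -0.0011 in the male mouse. In limma, regressing each gene on log2(*Lgr5* + 1), the slopes of the members ran from 0.04 (*Lyz1*) to 0.52 ± 0.26 (*Defa17*, adjusted p = 0.276) and 0 of 7 passed, beside 2.13% of 16510 genes. *Sox9*, a Wnt target needed for Paneth cells to form (0.50 ± 0.10, adjusted p = 0.00892), was the 1 of 13 Paneth cell regulators that passed. Of these regulators, 8 had positive slopes, with a median of 0.04. *Habp2* (1.22 ± 0.30, adjusted p = 0.0350) passed among the 26 other Paneth products, and *Tnfrsf19* (0.57 ± 0.08), *Slc12a2* and *Znrf3* among 11 crypt and stem genes. Fibroblast and muscle markers had positive slopes in 11 of 11, with a median of 0.48 beside 0.24 for the members, and *Pdgfra*, a receptor of fibroblasts, passed (0.57 ± 0.13, adjusted p = 0.0218). With segment as a further covariate, the slopes of the members kept their sign and none passed.

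In the clones of a tumour the slope of a member's difference on that of *Lgr5* lay between -0.22 ± 0.37 (*Defa24*) and 0.28 ± 0.48 (*Ang4*), and 0 of 7 passed in limma, beside 0.244% of 16427 genes. Fibroblast and muscle markers again had positive slopes in 11 of 11 (median 0.75), and *Lum*, a matrix proteoglycan, passed (1.49 ± 0.27, adjusted p = 0.0435). Values of r ran from -0.13 (*Defa24*, permutation p = 0.593, rho -0.12, permutation p = 0.625) to 0.13 (*Mmp7*, permutation p = 0.591, rho 0.21, permutation p = 0.372). For *Lyz1* it was 0.39 in the female and -0.49 in the male mouse. In the plot of these relations tumours with the largest *Lgr5* excess in the major clone, tumour 29 of the male (1.82) and tumour 23 of the female mouse (1.26), had a *Lyz1* difference of -0.96 and 0.37. No relation of *Lgr5* to these 7 genes was detectable at this number of tumours.

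**Figure D4:**
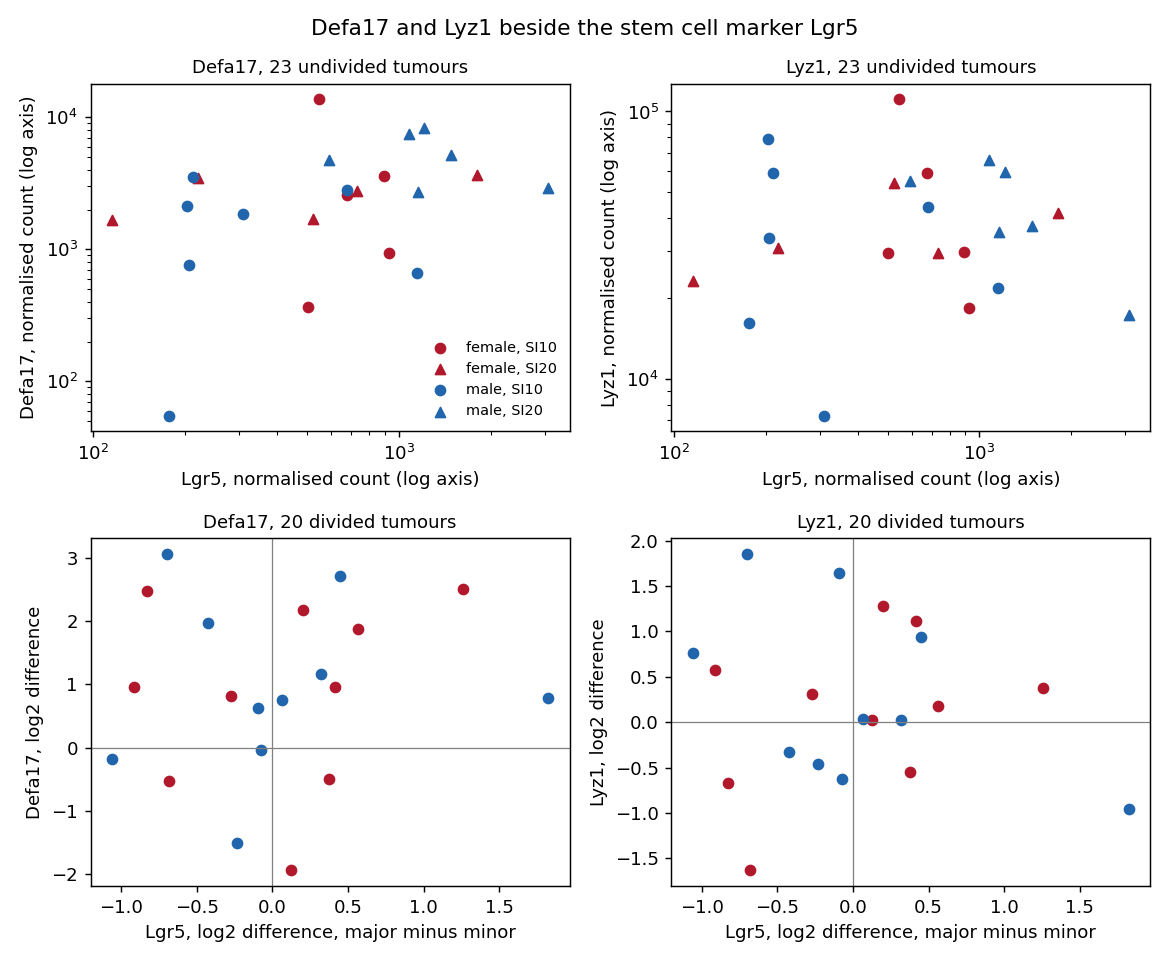
*Defa17* (left) and *Lyz1* (right) against *Lgr5*: above, normalised counts of the 23 undivided tumours on log axes, coloured by mouse and shaped by segment, and below, log2 differences between the major and minor clone of 20 tumours, coloured by mouse. The r with *Lgr5* over undivided tumours, with mouse means removed, was 0.38 for *Defa17* and 0.05 for *Lyz1*, and the clone differences form no line for either gene.

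The members did vary with each other. Of the 21 pairs, all had a positive r over the 23 undivided tumours (mouse means removed), and 19 had an adjusted permutation p under 0.05 over the 42 relations computed, 20 by Spearman's rho. The share of pairs of other genes that reach such values was not computed, here or for the clone differences below. These counts are therefore not shown to be particular to the members. Segment differences were left in the r values over undivided tumours. The highest was *Ang4* with *Defa17*, r = 0.96 and rho = 0.91 (both permutation p = 1e-05, the smallest that 100000 permutations can give, adjusted p = 4.67e-05 and 6e-05), 0.94 without the 2 tumours farthest from the *Ang4* median, 0.94 in the female and 0.97 in the male mouse. *Ang4* shares few read-length stretches with other genes and lies on another chromosome than the defensins, whereas most stretches of *Defa17* are shared. All 6 pairs among *Ang4*, *Defa24*, *Defa17* and *Itln1* lay between 0.83 and 0.96. The lowest pair, *Defa17* with *Mptx2*, had r = 0.40 (permutation p = 0.0867, adjusted p = 0.0910), 0.82 in the female and 0.23 in the male mouse. *Lyz1* with *Mmp7* had r = 0.43 (permutation p = 0.0423, adjusted p = 0.0539), which fell to 0.22 without the 2 tumours farthest from the *Lyz1* median.

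In the differences between clones of a tumour 21 of 21 pairs were positive, 13 with an adjusted p under 0.05 (18 by rho). *Ang4* with *Defa17* had r = 0.92 and rho = 0.89 (both permutation p = 1e-05; 0.98 in the female and 0.85 in the male mouse) and *Defa24* with *Defa17* r = 0.89 and rho = 0.90. *Lyz1* was closest to *Mptx2* (r = 0.60, permutation p = 0.00558, adjusted p = 0.00976, rho = 0.68, adjusted p = 0.00268) and to *Itln1* and *Mmp7* it had the lowest values of the 21 (0.16 and 0.13, permutation p = 0.510 and 0.574). *Mmp7* with *Defa17* had r = 0.63 and rho = 0.83, and r was 0.77 without the 2 tumours farthest from the *Mmp7* median.

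**Figure D5:**
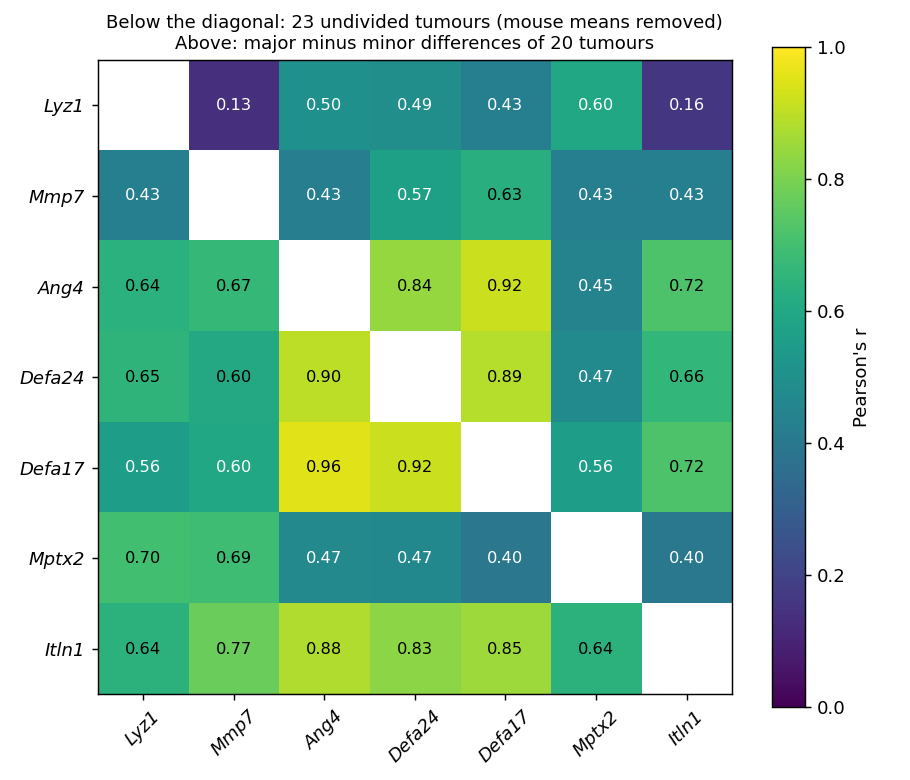
Pearson's r for each pair of members, below the diagonal over 23 undivided tumours after removal of mouse means and above it over the major minus minor differences of 20 divided tumours. The block of *Ang4*, *Defa24*, *Defa17* and *Itln1* holds the highest values (0.83 to 0.96 below and 0.66 to 0.92 above the diagonal), and *Lyz1* with *Mmp7* is among the lowest (0.43 and 0.13).

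Clones of 1 tumour resembled each other in these genes only in part. The r of the major with the minor clone over 20 tumours, after removal of mouse means in each class, was 0.52 for *Ang4* (permutation p = 0.0319), 0.50 for *Defa24* (0.0324), 0.48 for *Defa17* (0.0434), 0.47 for *Itln1* (0.0530), 0.39 for *Mmp7* (0.0982), 0.31 for *Lyz1* (0.189) and 0.24 for *Mptx2* (0.270). No member passed after adjustment over the 7, by r or by rho. Without the 2 tumours farthest from the major clones' median *Defa24* fell to 0.23 and *Ang4* to 0.37. The median over all 16428 genes was 0.25, and *Lyz2* lay at 0.76 (permutation p = 0.000320).

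Genes most like each member over the undivided tumours (r with mouse means removed, genes with a mean of at least 10, given as a description) split the 7 into sets. The 3 closest genes were *Defa36*, *Defa3* and *Defa34* for *Ang4* (r = 0.95 for each), *Defa36*, *Defa23* and *Defa21* for *Defa24* (0.97, 0.96 and 0.95), *Defa3*, *Defa36* and *Defa23* for *Defa17* (0.99, 0.94 and 0.94) and *Defa34*, *Defa41* and *Defa2* for *Itln1* (0.91, 0.89 and 0.88). For each of these 4 members, the 10 closest genes were all other Paneth cell products. *Defa3*, the closest to *Defa17*, and *Defa30*, among the 10 closest to *Defa24*, share read-length stretches with them. The part of shared reads in these r values was not tested. For *Mmp7* the closest were *Rnase1*, *BC064078* and *Defa20* (0.77, 0.74 and 0.73), and 4 of its 10 were Paneth products. For *Lyz1* they were *Bet1*, *Gm16867* and *Tmem167* (0.80, 0.76 and 0.74), with 1 of 10, and for *Mptx2* *Rps6kb1*, *Nos2* and *Suv39h2* (0.85, 0.77 and 0.77), with 0 of 10. For the mean log2 value of the 7 members the closest were *Defa34*, *Defa36* and *Defa5* (0.93 for each).

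*Lyz2* was set beside *Lyz1* because of their shared sequence. *Lyz1* exceeded *Lyz2* in all 63 libraries, at least 5.53 times. The median ratio of their normalised counts was 48.7 for major clones, 77.9 for minor clones and 35.8 for undivided tumours. Over undivided tumours *Lyz1* with *Lyz2* had r = 0.44 and rho = 0.47 (permutation p = 0.0319 and 0.0222, adjusted p over 6 relations 0.0637 and 0.0666), and over clone differences r = 0.23 and rho = 0.14 (permutation p = 0.330 and 0.558). *Lyz2* with *Csf1r*, the macrophage receptor for colony-stimulating factor, had r = 0.60 and rho = 0.54 in undivided tumours (adjusted p = 0.0124 and 0.0427; 0.38 without the 2 tumours farthest from the *Lyz2* median), and *Lyz1* with *Csf1r* had r = 0.29 and rho = 0.20 (permutation p = 0.211 and 0.369).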

How the data were processed

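RNA of freshly dissected tumours (RNeasy Plus, Illumina Stranded mRNA Prep, paired-end reads of 50 bases) was sequenced in 63 libraries. The authors trimmed reads with Trimmomatic 0.39, quantified them with Salmon 1.9.0 against GENCODE mouse release M30 and deposited normalised counts, a signal per gene that is not whole-numbered; how it was scaled is not given in the sources used here beyond DESeq2, so no count model was fitted. Sums per library were 26140200 to 45909900. Major and minor classes came from the source data of the study, since the labels give clone letters only; segments, mice and tumour numbers came from the labels. In each comparison, log2(value + 1) of genes averaging 10 or more was fitted with limma 3.58.1 in R 4.3.3 (eBayes with trend, Benjamini-Hochberg over all genes), with a block for each tumour between its clones, since clones of 1 tumour share its number, and mouse as a covariate otherwise. p-values measure the spread between tumours of 2 mice. Correlations used 100000 permutations, within mice for undivided tumours and for the 2 clones of a tumour (SciPy 1.17.1). The limma and correlation steps were tested on simulated data. Symbols, the comparisons and the gene lists were chosen with earlier results of these data known. Beside all members, *Lgr5* and *Lyz2*, up to 3 genes of a list that passed in a comparison were named, and the 3 genes most like each member. *Rn18s*, *Csf1r*, *Atoh1* between segments and the genes that share stretches with members were named outside this rule. Read-length stretches, transcripts and coordinates came from GENCODE M39 on GRCm39, not release M30. Alternatives were the pseudocount, the filter, quantile normalization, equal library sums, covariates, each mouse alone and each tumour left out.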

Additional observations from a re-analysis of the deposited data

Results flagged for a closer look

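Of 28 groups of 7 or 10 tumours examined, 1 held a tumour far from the others. The mean log2 value of *Mmp7* over both clones of tumour 25 of the male mouse, 11.19, was the lowest of the 10 divided tumours of segment SI20, and its gap to the next tumour was 0.493 of the whole range. Chance flags about 1 in 20 such groups. No difference of an effect between the mice or segments passed an adjusted p under 0.05 in limma.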

How the results depend on the processing

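Of 455 member values under alternatives other than leaving out a tumour, 429 kept their direction and side of the threshold and 26 changed sign. For major minus minor clones, *Mmp7* was 0.0070 in the female mouse and 0.017 as the signed-rank median, and *Itln1* -0.12 in the male mouse. For undivided tumours minus major clones, *Mmp7* was -0.026 with equal library sums and -0.010 in the male mouse, *Defa24* 0.055 and *Itln1* 0.16 in the male mouse. For undivided tumours minus minor clones, *Mmp7* was 0.15 in the female mouse and 0.063 with segment as a covariate, *Ang4* -0.045 with equal sums and -0.26 in the female mouse, *Defa24* -0.098 with quantile normalization, -0.059 with equal sums and -0.52 in the female mouse, *Defa17* -0.36 in the female and *Itln1* 0.036 in the male mouse. Between segments, *Lyz1* (-0.23) and *Mmp7* (-0.12) reversed in undivided tumours of the female and *Mmp7* (-0.36) in divided tumours of the male mouse. Slopes on *Lgr5* reversed over undivided tumours for *Lyz1* in the male (-0.00081) and *Mptx2* in the female mouse (-0.15), and over clone differences for *Lyz1* (0.017 with quantile normalization, 0.036 with equal sums, 0.49 in the female mouse), *Defa24* (0.058, female) and *Mptx2* (-0.57, male). Equal sums moved the median of all genes by up to 0.11. The cause was not tested.

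The number of genes called for major minus minor clones, 188, was 1 without the pairing of clones by tumour (no replicate block), 85 without the filter, 344 with quantile normalization, 292 with equal sums, 0 in the female and 33 in the male mouse, 42 without the tumour with 2 segment labels and 48 by the signed-rank test. For undivided tumours minus major clones, 2 became 1 with quantile normalization and 0 without the filter, with equal sums, in either mouse and with segment as a covariate. For undivided tumours minus minor clones, 610 became 0 in the female mouse and 367 with segment. Between segments, 28 in undivided tumours became 18 with a pseudocount of 0.1, 0 in the female and 46 in the male mouse and 15 without the mouse covariate, and 46 in divided tumours became 0 in the female and 6 in the male mouse. For slopes on *Lgr5* over undivided tumours, 352 became 198 with quantile normalization, 1257 with equal sums, 0 in the female and 2 in the male mouse and 160 with segment, and over clone differences 40 became 3 without the filter, 3 with quantile normalization, 860 with equal sums, 0 in either mouse and 3 without the tumour with 2 segment labels. No member passed in any of these settings.

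Leaving out 1 tumour at a time gave 25 (without male 20) to 859 (without female 19) genes for major minus minor clones, with 0 to 2 members called, and 0 to 25 (without male 7) and 274 (without male 26) to 959 (without female 19) for undivided tumours minus major and minor clones. It gave 5 (without female 10) to 53 (without female 6) and 13 (without female 19) to 215 (without female 23) between segments, in undivided and divided tumours. For slopes on *Lgr5* it gave 102 (without male 7) to 742 (without male 3) and 0 (without male 29) to 83 (without female 30). Values that changed sign ranged, for major minus minor clones, from -0.13 to 0.036 (*Mmp7*) and -0.073 to 0.26 (*Mptx2*), for undivided minus major from -0.021 to 0.14 (*Mmp7*), for undivided minus minor from -0.098 to 0.048 (*Mmp7*), -0.12 to 0.28 (*Ang4*) and -0.10 to 0.19 (*Defa24*), and for undivided segments from -0.0084 to 0.36 (*Lyz1*). Slopes on *Lgr5* ranged from -0.036 to 0.14 (*Lyz1*) over undivided tumours, and over clone differences from -0.27 to 0.22 (*Lyz1*), -0.015 to 0.41 (*Defa17*), -0.18 to 0.65 (*Mptx2*) and -0.065 to 0.34 (*Itln1*).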
